A study of Homo sapiens with 24 samples.

Results

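Transcription factors of the basal and squamous lineages of stratified and glandular epithelium, 10 genes in all, were examined for H3K27ac, the acetylation of lysine 27 on histone H3 that marks active promoters and enhancers. They are TP63, TFAP2A, TFAP2C, KLF4, KLF5, GRHL1, GRHL2, GRHL3, OVOL1 and ZNF750, of 21569 gene symbols that the annotation of the 6 deposited tables names. A region was assigned to a gene when the authors' annotation named that gene as overlapping the region or as its neighbour on the left or right. By this rule 56 of 50284 regions tested in the 10A line and 63 of 44790 regions tested in the DCIS line belonged to the 10 factors.

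The 24 ChIP-seq libraries formed 8 groups of 3. MCF10A (10A) is an immortalized, non-tumorigenic human mammary epithelial line, and MCFDCIS (DCIS) is a malignant derivative of it that models ductal carcinoma in situ. Each line carried either a lentiviral hairpin that knocks down ANCO1, the product of the ANKRD11 gene (shANCO1), or a control hairpin directed against GFP (shCTRL), and each of these 4 populations gave an H3K27ac immunoprecipitate and an input, which is sonicated chromatin without pull-down. The ChIP-seq populations carried a single ANCO1 hairpin per line, so an effect of that hairpin alone cannot be told apart from the loss of ANCO1. The level of ANKRD11 RNA was not analysed here.

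Each region carries, in the authors' deposited table, 1 log2 fold change of a representative window, the number of windows that rose or fell, and 1 FDR (a p-value adjusted over all regions) for 3 libraries against 3. No value per library is given, so the spread between replicates enters only through the FDR, and no interval can be set on a fold change. Regions are called higher or lower at an FDR under 0.05. A region is called marked in a group when it rose above input at that threshold. The tables over input list, except for 2 DCIS shCTRL regions, only regions far past it (highest FDR 3.92e-08 in 10A shCTRL), so a place without a mark was not listed, which is not a measured absence of acetylation. The promoters of 4 or 5 of 7 basal epithelial markers were marked in each group, KRT5 and ITGB4 in all 4, TP63 in the 10A groups only, KRT17 in the DCIS groups only and CDH3 in all but 10A shCTRL. Those of 3 to 5 of 7 luminal markers were marked. Of the markers of other cell types, PECAM1 (1 of 3 endothelial) and CD68 (1 of 4 immune) were marked in all groups, and PDGFRA (1 of 4 fibroblast) in the shANCO1 groups only. In a population of cells, less acetylation per cell and fewer cells that carry it cannot be told apart.

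TP63 encodes p63, whose short form (ΔN), made from an internal start, maintains basal epithelial cells, while the long form (TA) starts far upstream. The AP-2 factors TFAP2A and TFAP2C and the Krüppel-like factors KLF4 and KLF5 act with p63 at epidermal and mammary enhancers. The grainyhead-like factors GRHL1 to GRHL3 control epithelial junction and barrier genes, and OVOL1 and ZNF750 act later, when squamous cells leave the cycle and differentiate.

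In 10A cells, acetylation rose at 16 of the 56 regions of the factors upon ANCO1 knock-down (28.6%) and fell at none, nor did any fall at an unadjusted p under 0.05 in the authors' csaw test. Over all tested 10A regions 43.6% rose and 0.225% fell, so the share that rose was below that of the table. Without TP63, a setting chosen after seeing the data, 13 of 37 10A regions of the factors rose (35.1%). The 16 regions belonged to TFAP2A (7 regions), TP63 (3), TFAP2C, KLF5 and OVOL1 (2 each). These are 5 of the 9 factors with any region (55.6%), compared with 74.3% of all genes that had at least 1 region higher. The median log2 fold change of the 56 regions was 0.60 against 0.76 over the table, and 41 of them (73.2%) lay above 0, against 91.8% over the table. The 10A values ranged from -0.94 to 1.32, and none of those that rose exceeded the line median by 1 or more.

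In DCIS cells, acetylation rose at 14 of 63 regions of the factors (22.2%) and fell at 3 (4.76%). Both shares lay close to those of the table, 23.6% higher and 4.86% lower. At least 1 region rose at 7 of the 10 factors, compared with 32.2% of all genes. These were TP63 (7 regions), TFAP2A (2), and GRHL1, GRHL2, GRHL3, OVOL1 and ZNF750 (1 each). Regions that fell belonged to 1 factor, GRHL3, compared with 7.16% of all genes. Such shares of genes, in either line, do not take the number of regions per gene into account. In DCIS cells TP63 held 13 regions, and GRHL2 and GRHL3 held 11 each. TP63 held 7 of the 14 regions that rose, and without it 7 of 50 regions (14%) rose. The median log2 fold change was 0.52 both for the 63 regions and over the table, and the values of the factors spread from -1.65 to 2.97.

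**Figure D1:**
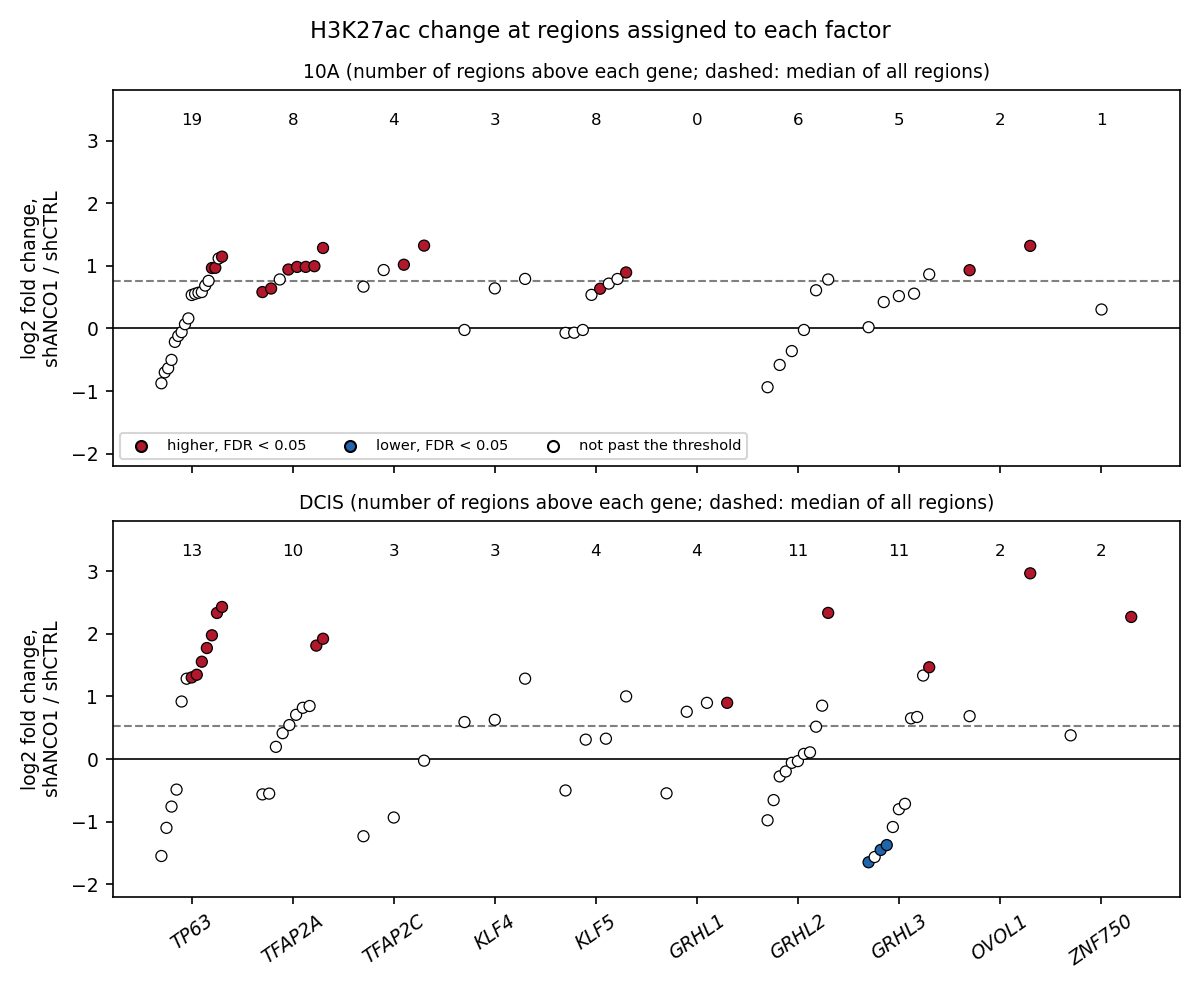
Each point is 1 region assigned to the factor named on the horizontal axis, placed by its log2 fold change (shANCO1 over shCTRL) in 10A cells (top) and DCIS cells (bottom); filled points passed an FDR of 0.05 and the dashed line is the median of all regions of that line (0.76 and 0.52). The 10A values stay between -0.94 and 1.32, whereas the DCIS values reach 2.97 at OVOL1 and 2.43 at TP63 and drop to -1.65 at GRHL3.

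TP63 lies on chromosome 3 from 189631389 to 189897276 on the plus strand. GENCODE release 44 lists 5 protein-coding transcripts that begin near 189631389 and 6 that begin at or beyond the internal start at 189789659, 158.3 kb downstream. The 250 bases before each start are shown because regions assigned to TP63 lay near the internal start and not near the long one. The first is from the RefSeq promoter table (GRCh38.p14, chr3:189631139-189631388) and the second from the genome of the same build (hg38, chr3:189789409-189789658), both on the plus strand. Neither holds any of the 6 motifs searched, which are described with the sequence comparison, so both stand in lower case.
TP63 long start: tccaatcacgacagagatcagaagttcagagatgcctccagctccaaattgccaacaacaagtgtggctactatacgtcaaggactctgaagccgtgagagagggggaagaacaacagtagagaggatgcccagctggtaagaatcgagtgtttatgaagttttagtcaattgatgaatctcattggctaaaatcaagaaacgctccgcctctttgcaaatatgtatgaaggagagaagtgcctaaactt
TP63 internal start: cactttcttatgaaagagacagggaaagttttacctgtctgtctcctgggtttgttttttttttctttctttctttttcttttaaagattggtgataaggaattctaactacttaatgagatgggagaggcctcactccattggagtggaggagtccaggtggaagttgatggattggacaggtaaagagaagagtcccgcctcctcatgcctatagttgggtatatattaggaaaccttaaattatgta

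No region assigned to TP63 lay near its long start. The nearest assigned region was 32.6 kb away in 10A cells and 78.7 kb away in DCIS cells. Tested regions whose annotation does not name TP63 were not examined for this distance. At the internal start, a stretch just inside the short transcripts was marked in both 10A groups, at log2 enrichments over input of 7.31 in shCTRL and 7.55 in shANCO1. In neither DCIS group was a region marked within 3 kb of this start. Upon ANCO1 knock-down acetylation there rose in DCIS cells (chr3:189790501-189793000, log2 fold change 1.56, FDR 0.0154, 7 of 24 windows up). The overlapping 10A region stood at 1.12 (FDR 0.0712). In 10A cells the region that rose lay on the other side of the start, 1.6 kb before it (chr3:189787101-189788100, log2 fold change 1.15, FDR 0.016, 9 of 9 windows up), and exceeded the line median by 0.38.

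The introns downstream of the internal start held most of the TP63 gains in DCIS cells. Of 6 tested DCIS regions there, 5 rose, with log2 fold changes between 1.30 and 2.43. The sixth, at chr3:189861101-189863900, stood at 1.28 (FDR 0.189). The region with the lowest FDR was chr3:189824201-189825500, 34.4 kb inside the short transcripts (log2 fold change 2.43, FDR 1.48e-05, 11 of 11 windows up). Next to it, chr3:189832901-189835500 rose by 1.98 on the log2 scale (FDR 1.73e-05, 20 of 24 windows up) and chr3:189839301-189839500 by 1.77 (FDR 0.00406, its single window up). In 10A cells 7 regions were tested over the same stretch, and none rose, their log2 fold changes lying between -0.64 and 0.68. A further 2 lay beyond the 3′ end of the gene and did not pass either. MIR944 is also annotated at chr3:189824201-189825500 and chr3:189832901-189835500.

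The marks over input were set beside these gains. Of the TP63 regions that rose in DCIS cells, only chr3:189832901-189835500 and chr3:189840401-189844500 overlapped a mark of either DCIS group. The region of lowest FDR, chr3:189824201-189825500, overlapped none. In 10A shCTRL cells 6 regions downstream of the internal start were marked, over 6900 bp, and in DCIS shCTRL cells 2, over 1900 bp. After knock-down the DCIS cells had 4 marked regions there, over 3100 bp, among them 2 inside chr3:189832901-189835500 at 7.49 and 7.81 over input, where shCTRL DCIS cells had no marked region. Inside chr3:189840401-189844500, which rose by 1.35 (FDR 0.0011), the marks had lower values over input in shANCO1 cells. They stood at 7.40 and 6.79 in shCTRL and at 4.43 and 3.48 in shANCO1 cells. Each value is that of 1 representative window in a region called separately in its group, so their difference does not measure a loss of acetylation. Between the long and the internal start the DCIS marks went from 2, over 1700 bp, in shCTRL to 1, over 200 bp, in shANCO1 cells, and over the whole gene the marked length was 3600 bp and 3300 bp. All 7 TP63 regions that rose in DCIS cells overlapped a region marked in 10A shCTRL cells. Of the 6 TP63 regions that did not pass in DCIS cells, 2 did so. Among all tested regions, 33.4% of DCIS regions that rose, and 20.7% of those that did not pass, overlapped a mark of 10A shCTRL cells. These are descriptions of overlap, with no test.

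Between the long and the internal start the lines also differed in their values. In DCIS cells chr3:189710101-189710700 rose (log2 fold change 2.33, FDR 3.79e-05, 5 of 5 windows up), and the other 4 regions lay between -1.55 and -0.49, none past the threshold. In 10A cells 2 of 7 regions rose there, one at chr3:189772501-189773700 (log2 fold change 0.97, FDR 0.0214), whose DCIS counterpart stood at -0.76 with an FDR of 0.586. Within 5 Mb of TP63, leaving out its own regions, 41.2% of 262 DCIS regions rose, above the 23.6% of the table, and 35.4% of 285 10A regions rose, below the 43.6% of that table. The part of this neighbourhood in the TP63 gains was not tested.

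**Figure D2:**
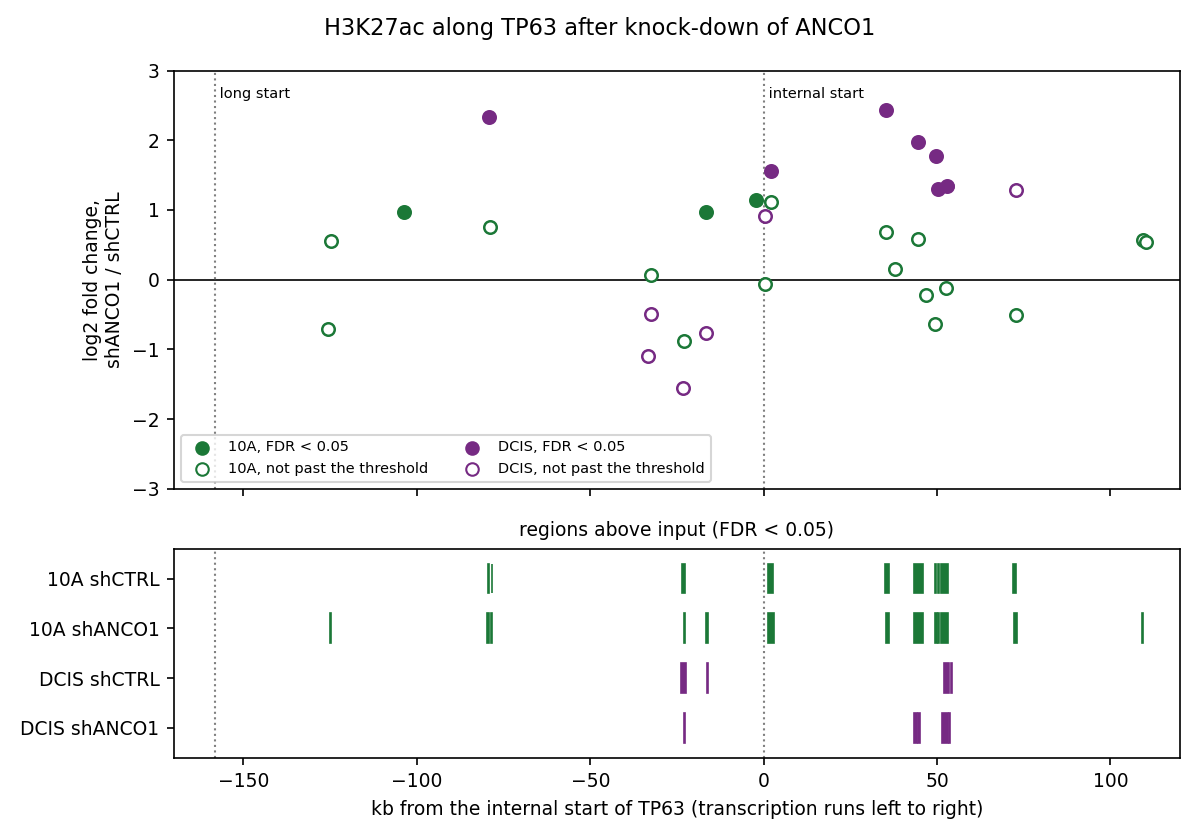
Top, log2 fold change (shANCO1 over shCTRL) of each TP63 region against its distance in kb from the internal start, with 10A in green, DCIS in purple and filled points past an FDR of 0.05; bottom, regions above input in each of the 4 groups. Downstream of the internal start 5 of 6 DCIS points are filled and lie between 1.30 and 2.43, the 9 10A points there are open, and the marked regions are more numerous in 10A than in DCIS shCTRL cells.

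The centre of the TP63 region with the lowest FDR in DCIS cells holds a pair of matches to the AP-1 motif TGANTCA, the site bound by FOS and JUN proteins. The 300 bases at its midpoint (hg38, chr3:189824701-189825000, plus strand, intronic) carry those matches in capitals.
TP63 gained intron: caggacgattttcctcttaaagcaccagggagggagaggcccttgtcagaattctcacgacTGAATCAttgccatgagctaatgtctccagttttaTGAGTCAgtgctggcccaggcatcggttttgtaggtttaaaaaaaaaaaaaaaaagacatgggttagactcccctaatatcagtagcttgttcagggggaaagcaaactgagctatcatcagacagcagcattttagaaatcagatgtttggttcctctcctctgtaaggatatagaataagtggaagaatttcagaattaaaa
AP-1 matches also stand in 2 neighbouring gained regions, shown with 12 bases on each side, the match in capitals. The first lies in chr3:189839801-189840100 and the others in chr3:189840401-189844500, which holds 4 AP-1 matches over its length.
chr3:189839813-189839843: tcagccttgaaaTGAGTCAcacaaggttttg
chr3:189841623-189841653: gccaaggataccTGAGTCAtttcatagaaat
chr3:189841743-189841773: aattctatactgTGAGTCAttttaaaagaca
The gained regions chr3:189832901-189835500 and chr3:189839301-189839500 hold no AP-1 match, and the first of them holds 2 matches to the AP-2 motif GCCNNNGGC.

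TFAP2A, which encodes AP-2α, lies on chromosome 6 from 10393186 to 10419659 on the minus strand and was the factor with the most regions that rose in 10A cells, 7 of 8. Of these, 5 abut or overlap each other from chr6:10399201 to chr6:10421000 and cover most of the gene, so they are stretches of 1 broad domain and not separate elements. Log2 fold changes of the 7 lay between 0.58 and 1.28, with the lowest FDR, 0.00104, at chr6:10426201-10428400, 6.6 kb before the first start (log2 fold change 0.98, 11 of 18 windows up). Among promoter-annotated regions the lowest was 0.00153, at chr6:10403501-10408000 (log2 fold change 0.99). The length marked over input was 13000 bp in 10A shCTRL and 19600 bp in 10A shANCO1 cells, while that of all 10A regions went from 9.0 Mb to 25.2 Mb. In the 5 Mb around TFAP2A 37.7% of the other 10A regions rose.

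In DCIS cells 2 of 10 TFAP2A regions rose. One lay 9.8 kb before the first start (chr6:10429401-10432100, log2 fold change 1.92, FDR 0.000336, 19 of 24 windows up) and overlapped a mark over input in shANCO1 cells only, at 6.90. LINC00518, MIR5689HG and LOC107986564 are also named there. The other lay at the 3′ part of the gene (chr6:10399601-10400800, log2 fold change 1.81, FDR 0.00676), where TFAP2A-AS2 is also annotated. The 4 regions from chr6:10403201 to chr6:10421100, which cover the starts, had log2 fold changes between 0.54 and 0.85 and FDRs between 0.429 and 0.587. The marked length was 10200 bp in DCIS shCTRL and 11300 bp in DCIS shANCO1 cells.

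TFAP2C, which encodes AP-2γ, lies on chromosome 20 from 56629306 to 56639283 on the plus strand and showed opposite signs in the lines. In 10A cells all 4 regions had positive values, from 0.67 to 1.32, and 2 rose. These were the promoter (chr20:56629201-56632100, log2 fold change 1.02, FDR 0.00798, 16 of 28 windows up) and an exonic stretch downstream (chr20:56636101-56637500, log2 fold change 1.32, FDR 0.00754). In DCIS cells all 3 regions were below 0 and none passed the threshold. The DCIS promoter region chr20:56629301-56632500 stood at -1.23 (FDR 0.068, 2 of 31 windows down). The length marked over input was 800 bp in 10A shCTRL and 2900 bp in 10A shANCO1 cells, and 3700 bp in DCIS shCTRL and 1900 bp in DCIS shANCO1 cells. That of all regions went from 9.0 Mb to 25.2 Mb in 10A cells and from 11.0 Mb to 11.9 Mb in DCIS cells. The difference between the lines was not tested, since the tables hold no value per library. RefSeq's promoter table has no entry for TFAP2C.

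KLF5, a Krüppel-like factor of proliferating basal cells, lies on chromosome 13 from 73054976 to 73077541 on the plus strand and rose in 10A cells around both of its starts. The region just inside the downstream start had the lower FDR (chr13:73059201-73063800, log2 fold change 0.89, FDR 0.00106, 24 of 45 windows up), and the one that spans both starts stood at 0.63 (chr13:73054701-73059300, FDR 0.0106). The other 6 regions of the gene lay between -0.07 and 0.79 and did not pass the threshold. In DCIS cells none of 4 regions passed. The stretch between the starts, chr13:73055701-73058700, came closest, at 1.00 (FDR 0.065). KLF5 was marked over input in all 4 groups, at 3.46 to 5.35 in 10A shCTRL and 7.25 to 7.56 in DCIS shCTRL cells. The 250 bases before the downstream start (RefSeq table, GRCh38.p14, chr13:73058755-73059004, plus strand) are 70.8% G and C and hold none of the motifs searched.
KLF5 promoter: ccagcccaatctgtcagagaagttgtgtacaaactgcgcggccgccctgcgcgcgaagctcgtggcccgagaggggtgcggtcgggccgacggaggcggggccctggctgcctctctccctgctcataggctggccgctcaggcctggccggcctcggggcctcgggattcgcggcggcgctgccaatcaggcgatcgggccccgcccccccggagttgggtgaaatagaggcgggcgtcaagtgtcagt
The KLF5 regions that rose in 10A cells hold 4 matches to AACCNGTT, a motif of the grainyhead-like factors. Other motifs searched also matched there. The region that spans both starts holds 2 AP-1, 2 TEAD and 1 AP-2 matches. The other holds 3 AP-1, 3 TEAD, 4 AP-2, 1 KLF and 1 p53-family match. No share over regions of this length was computed. The grainyhead-like matches are shown with 12 bases on each side because they place a motif of 3 of the 10 factors at another of them. The first lies between the starts and the others beyond the downstream start, and a match is not evidence of binding.
chr13:73056535-73056566: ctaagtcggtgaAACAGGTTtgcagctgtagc
chr13:73061674-73061705: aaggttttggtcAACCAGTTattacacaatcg
chr13:73062078-73062109: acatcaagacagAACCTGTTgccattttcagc
chr13:73062929-73062960: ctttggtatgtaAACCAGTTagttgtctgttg

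KLF4, a Krüppel-like factor of differentiating keratinocytes, did not pass the threshold at any of its 3 regions in either line. At an unadjusted p under 0.05, 1 DCIS region rose and no 10A region changed. KLF4 lies on chromosome 9 from 107484852 to 107490482 on the minus strand. Its promoter-annotated regions of lowest FDR stood at 0.64 in 10A cells (chr9:107490101-107490500, FDR 0.115) and 0.63 in DCIS cells (chr9:107490201-107490400, FDR 0.33). No KLF4 promoter region was marked over input in any group. A single mark beyond the 3′ end of the gene was listed in 10A shANCO1 cells at 6.76, 8566 bp from the nearest start, and in DCIS shCTRL cells at 6.70. The tested region over that mark stood at a log2 fold change of 0.79 in 10A cells (FDR 0.326) and 1.28 in DCIS cells (FDR 0.103).

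GRHL3, the grainyhead-like factor of the late epidermal barrier, lies on chromosome 1 from 24199558 to 24364482 on the plus strand and held all 3 of the factors' regions that fell. All 3 fell in DCIS cells. They span 12.2 kb, from 17.8 to 30.0 kb before the proximal GRHL3 starts and 89.2 kb inside the long transcript that begins at 24199558. The widest was chr1:24288801-24292100 (log2 fold change -1.65, FDR 0.0124, 20 of 32 windows down). The other 2 were narrow, chr1:24297801-24298100 (-1.45, FDR 0.04, 2 of 2 windows down) and chr1:24300501-24301000 (-1.37, FDR 0.0448, 4 of 4 windows down). The 3 other DCIS regions tested from chr1:24286401 to chr1:24301000 also had values below 0, with FDRs of 0.312, 0.13 and 0.0519. The next region upstream, chr1:24283401-24285900, stood at 1.33 (FDR 0.0673).

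DCIS shCTRL cells had 4 marked regions there, over 3000 bp, at 3.15 to 5.26 over input. DCIS shANCO1 cells had 1, over 1600 bp, at 4.91. The pair of marks at chr1:24289401-24289700 and chr1:24290301-24291200, which lie in the widest region that fell, had no counterpart in shANCO1 cells. The other marks of the stretch, inside chr1:24293001-24296000, stood at 5.26 and 5.06 in shCTRL cells beside the 4.91 in shANCO1 cells, and the 2 narrow regions that fell lay over no mark of either group. No 10A region was tested in this stretch, and none was marked in either 10A group. Further upstream, 1 GRHL3 region rose in DCIS cells (chr1:24236501-24236800, log2 fold change 1.47, FDR 0.0128, 2 of 2 windows up). At the proximal starts neither line passed the threshold, with log2 fold changes of 0.42 and 0.86 in 10A cells (lowest FDR 0.0734) and 0.65 and 0.67 in DCIS cells (lowest FDR 0.258), where GRHL3-AS1 is also annotated.

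**Figure D3:**
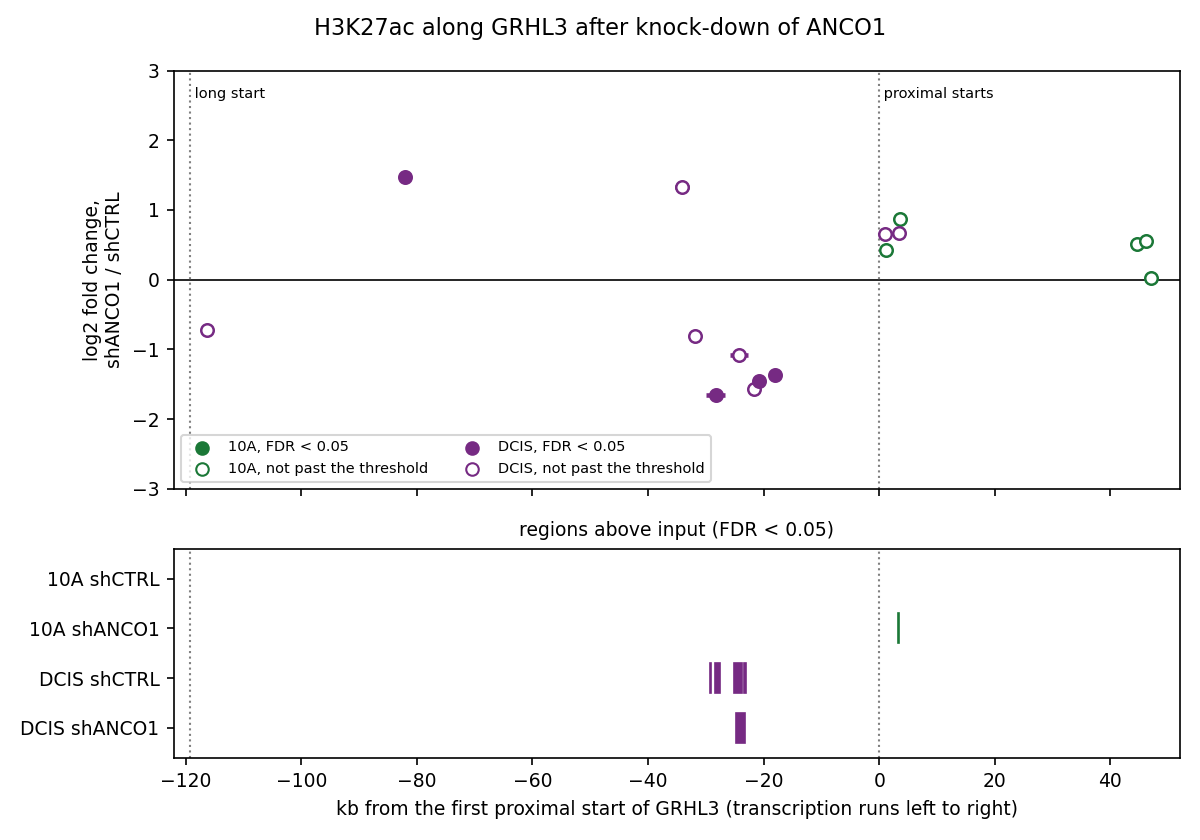
Top, log2 fold change (shANCO1 over shCTRL) of each GRHL3 region against its distance in kb from the first proximal start, with 10A in green, DCIS in purple and filled points past an FDR of 0.05; bottom, regions above input in each group. The 3 filled DCIS points at -1.65, -1.45 and -1.37 sit 17.8 to 30.0 kb before the proximal starts, where 4 marked regions are listed in DCIS shCTRL and 1 in DCIS shANCO1 cells.

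The widest GRHL3 region that fell holds 5 matches to GGAATG, the motif of the TEAD factors that carry YAP to DNA, along with 3 KLF, 2 AP-2 and 1 AP-1 matches over its 3300 bp. TEAD matches are shown because the ANCO1 protein is known as a repressor at YAP and TEAD complexes. A match is not evidence of binding, and any part of these sites in the fall was not tested. Over the 500 bp at the midpoint, a TEAD match stood in 27% of the factors' DCIS regions and 27.1% of all DCIS regions. The 5 matches here lie outside that window of this region. No share over 3300 bp was computed, so whether 5 is many cannot be told. The TEAD matches in the last 800 bases stand below, with 12 bases on each side and the match in capitals (plus strand, hg38).
chr1:24291303-24291332: tcacaccctgtgCATTCCtgtgtctaggct
chr1:24291349-24291378: cttccttggcctGGAATGtgttctcccacc
chr1:24291754-24291783: tcccacaccttcCATTCCaggattccttca
chr1:24291833-24291862: ttccttccacctGGAATGctctctctacct

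GRHL2, the grainyhead-like factor that maintains epithelial identity in breast cells, did not rise in 10A cells at any of 6 regions. It lies on chromosome 8 from 101492439 to 101669726 on the plus strand. The 10A values ran from -0.94 to 0.78, with the lowest FDR at 0.219. In DCIS cells 1 of 11 regions rose, an intronic stretch 107.4 kb inside the gene (chr8:101600201-101600900, log2 fold change 2.33, FDR 7.94e-05, 3 of 4 windows up). Neither DCIS group had a mark over input at this place. The 10A region over the same place stood at -0.02 with an FDR of 0.967. The promoter was marked over input in all 4 groups, and its tested region had a log2 fold change of 0.78 in 10A cells (FDR 0.834) and -0.03 in DCIS cells (FDR 0.998). The promoter-annotated DCIS region of lowest FDR, chr8:101634101-101634400, lies far inside the gene and stood at 0.08 (FDR 0.968). The marked length was 2900 bp and 2600 bp in 10A shCTRL and shANCO1 cells, and 8700 bp and 6600 bp in DCIS shCTRL and shANCO1 cells.

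GRHL1 lies on chromosome 2 from 9951693 to 10002277 on the plus strand, and no 10A region was assigned to it. In DCIS cells 1 of 4 regions rose, 9.0 kb before the gene (chr2:9939201-9942700, log2 fold change 0.90, FDR 0.0489, 6 of 34 windows up). The promoter region chr2:9951101-9951300 stood at -0.55 (FDR 0.462). The region that rose overlaps LOC105373422 and was marked over input in both DCIS groups. This FDR is just inside the threshold, as is the 0.0493 of the TP63 region chr3:189839801-189840100.

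OVOL1, a zinc-finger repressor that acts as keratinocytes stop dividing, held the largest DCIS value among the factors. It lies on chromosome 11 from 65787063 to 65797214 on the plus strand. The region chr11:65791701-65793200, inside the gene, rose by 2.97 on the log2 scale (FDR 5.98e-05, 14 of 14 windows up). It was also the 10A region of lowest FDR for the gene (chr11:65792101-65793200, log2 fold change 1.32, FDR 0.00156, 4 of 10 windows up), so the same place rose in both lines. OVOL1-AS1 is also annotated there. No group had a mark over input at this place. A second region, 6.2 kb before the first start and over AP5B1, rose in 10A cells (chr11:65779701-65780900, log2 fold change 0.93, FDR 0.0258) and stood at 0.69 with an FDR of 0.128 in DCIS cells. That region was marked over input in both 10A groups, at 2.32 in shCTRL and 3.47 in shANCO1, and in DCIS shANCO1 cells at 4.02.

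ZNF750, a zinc-finger factor that acts below p63 in squamous differentiation, lies on chromosome 17 from 82829434 to 82840022 on the minus strand and overlaps TBCD. In DCIS cells 1 of 2 regions rose (chr17:82835501-82836400, log2 fold change 2.27, FDR 9.1e-05, 8 of 8 windows up). The single 10A region there was 200 bp wide and stood at 0.31 with an FDR of 0.496. No ZNF750 region was marked over input in any group. Since ZNF750 and TBCD overlap, a change here cannot be assigned to either gene by position. In the 5 Mb around OVOL1 and around ZNF750 17.5% of the other DCIS regions rose, below the 23.6% of the table.

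The centres of these OVOL1 and ZNF750 regions are shown as the regions of the largest DCIS gains outside TP63 and GRHL2 (hg38, plus strand). The OVOL1 stretch is chr11:65792301-65792600, with a KLF match (CCACNCCC) in capitals. Of its bases, 133 belong to an annotated exon of OVOL1, but the region is intronic in the protein-coding GENCODE transcripts used here. The ZNF750 stretch is chr17:82835801-82836100 and holds none of the motifs searched. The RefSeq promoter table has no entry for OVOL1, ZNF750 or GRHL2.
OVOL1 gain: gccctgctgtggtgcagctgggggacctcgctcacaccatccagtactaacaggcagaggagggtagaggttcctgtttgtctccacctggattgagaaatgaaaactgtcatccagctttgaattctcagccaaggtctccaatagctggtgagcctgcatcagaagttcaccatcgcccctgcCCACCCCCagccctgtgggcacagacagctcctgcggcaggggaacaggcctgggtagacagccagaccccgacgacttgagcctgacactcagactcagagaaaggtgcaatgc
ZNF750 gain: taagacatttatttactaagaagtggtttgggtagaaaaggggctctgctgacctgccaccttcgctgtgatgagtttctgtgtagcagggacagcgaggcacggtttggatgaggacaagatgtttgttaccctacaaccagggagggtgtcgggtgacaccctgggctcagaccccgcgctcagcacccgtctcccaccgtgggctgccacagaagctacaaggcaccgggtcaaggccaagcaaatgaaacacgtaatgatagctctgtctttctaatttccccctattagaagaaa

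Over all factors, 6 had a region marked over input in 10A shCTRL cells and 8 in each of the other groups. The marked length summed to 32.4 kb in 10A shCTRL, 44.1 kb in 10A shANCO1, 33.8 kb in DCIS shCTRL and 29.6 kb in DCIS shANCO1 cells. Since regions were called separately in each group, these lengths also move with how much was called. All marked regions numbered 15490 in 10A shCTRL and 28607 in 10A shANCO1 cells, over 9.0 Mb and 25.2 Mb, and 15480 and 16692 in the DCIS groups, over 11.0 Mb and 11.9 Mb. Of the 56 regions tested in 10A cells, 21 (37.5%) overlapped a shCTRL mark and 28 (50%) a shANCO1 mark, against 23.5% and 45.2% of all 10A regions. Of the 63 in DCIS cells, 21 (33.3%) overlapped a shCTRL mark and 20 (31.7%) a shANCO1 mark, against 27% and 30.3% of all DCIS regions. In 10A cells 11 of the 16 regions that rose lay over a shANCO1 mark (68.8%), against 70% of all regions that rose. In DCIS cells 4 of 14 did (28.6%), against 38.4%, and 10 of the 14 (71.4%) lay over no mark of either DCIS group, against 61.5% of all DCIS regions that rose.

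**Figure D4:**
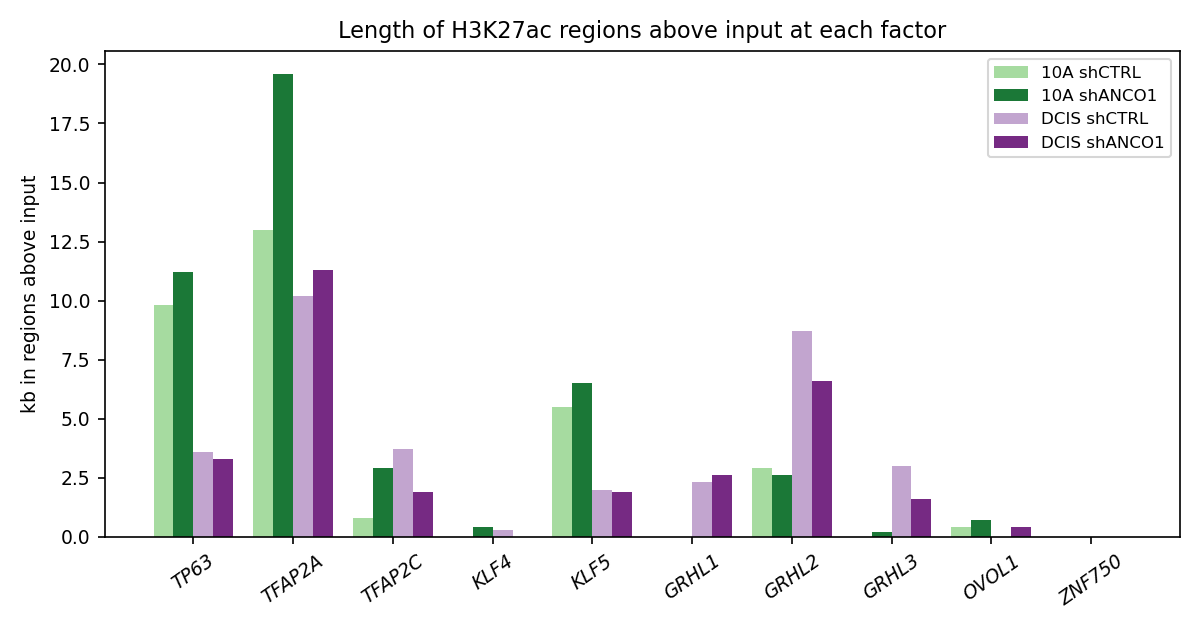
Bars give the summed length in kb of regions above input (FDR under 0.05) assigned to each factor in the 4 groups; there are no error bars because each group has 1 deposited value. TFAP2A has the longest bars in every group, TP63 is longer in the 10A than in the DCIS groups (9.8 kb and 3.6 kb in shCTRL), and GRHL2 is longer in the DCIS groups.

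Comparing the lines region by region, 40 of the 56 10A regions overlapped a DCIS region of the same factor. Both rose in 2 of these pairs, at OVOL1 (chr11:65792101-65793200 in 10A) and at the 3′ part of TFAP2A (chr6:10399201-10403600 in 10A). In 12 pairs only the 10A region passed, 6 of them at TFAP2A, and in 9 pairs only the DCIS region passed, 6 of them at TP63. In 17 pairs neither passed, and no pair held calls in opposite directions. None of the 3 GRHL3 regions that fell had a 10A partner. Passing in 1 line only does not show that the lines differ, and that difference was not tested.

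**Figure D5:**
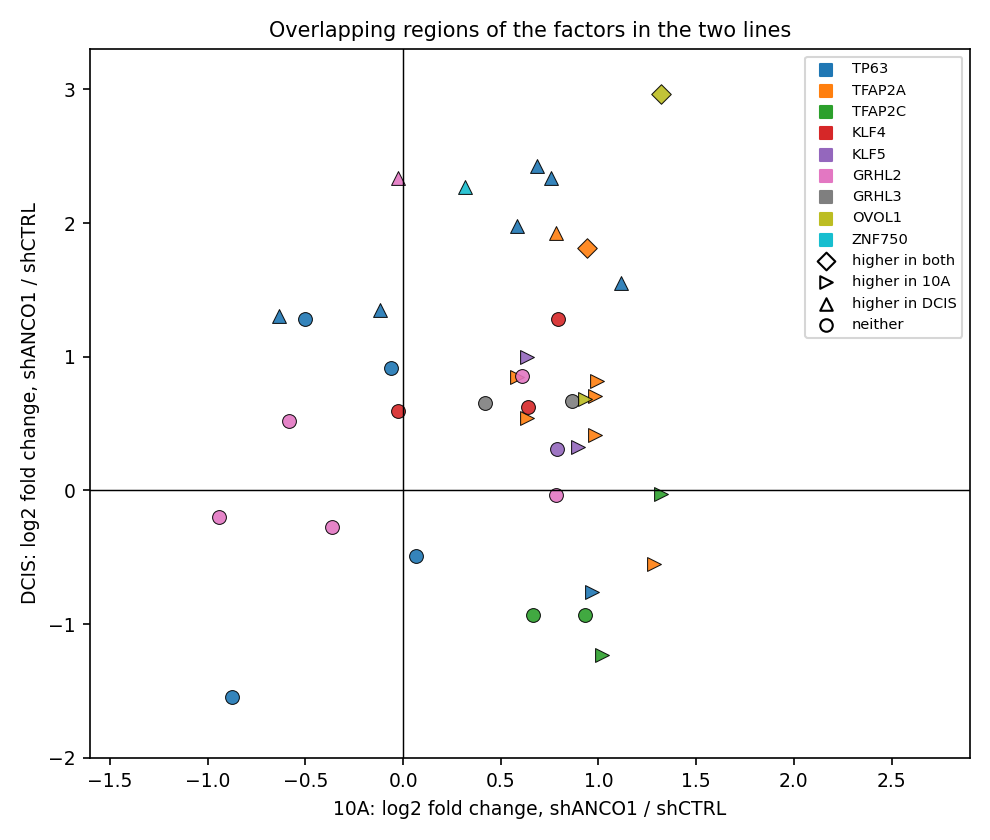
Each point is a pair of overlapping regions of 1 factor, with the 10A log2 fold change (shANCO1 over shCTRL) on the horizontal and the DCIS log2 fold change on the vertical axis; colours give the factor and shapes the line in which the region passed an FDR of 0.05. TP63 points that passed in DCIS lie at 1.30 to 2.43 on the vertical axis, the TFAP2C points lie right of 0 and below 0, and the OVOL1 diamond at 1.32 and 2.97 passed in both lines.

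Motif content was compared as a description, over the 500 bp at the midpoint of each tested region and on both strands. The 6 motifs were AP-1 (TGANTCA), TEAD (GGAATG), GRHL (AACCNGTT), AP-2 (GCCNNNGGC), KLF (CCACNCCC) and a p53-family motif of CATG, 6 bases of any kind and CATG. AP-1 matches stood in 6 of the 14 regions of the factors that rose in DCIS cells, and in 11 of all 63. Over the table, AP-1 stood in 34% of DCIS regions that rose, 17.8% of those that did not pass and 21.5% of all. In 10A cells AP-1 matches stood in 4 of 16 that rose and 12 of 56, and over the table in 28% of 10A regions that rose, 24.6% of those that did not pass and 26.1% of all. GRHL matches stood in 5 of 63 DCIS regions of the factors (7.94%) and 2 of 56 10A regions (3.57%), against 3.6% and 3.48% of all regions.

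TEAD matches stood in 17 of 63 DCIS regions (27%) and 14 of 56 10A regions (25%), against 27.1% and 27.9% over the tables. AP-2 matches stood in 17.5% and 17.9% of the regions of the factors against 22.5% and 20.7%, and KLF matches in 20.6% and 16.1% against 21.3% and 17.4%. The p53-family motif stood in 2 of 63 DCIS regions and none of the 56 10A regions, against 2.05% and 2.02%. The RefSeq table held 9 promoters of 6 of the factors. Of these 9, 2 held an AP-2 match and 2 a KLF match, against 23.2% and 17.2% of 35116 promoters of the same 300 bases, and none held an AP-1, TEAD, GRHL or p53-family match, against 7.71%, 14%, 1.73% and 0.373%.

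Other genes of the basal and squamous programme were counted alongside, each named gene with the log2 fold change and FDR of its region of lowest FDR. Among 24 basal genes, 91 of 198 10A regions rose (46%) and 61 of 185 DCIS regions rose (33%), against 43.6% and 23.6% of all regions. None fell in either line, against 0.225% of all 10A regions and 4.86% of all DCIS regions. The lowest FDRs belonged to LAMB3, a laminin chain, in both lines, at regions that did not overlap (log2 fold change 1.34, FDR 5.31e-08 in 10A, and 3.18, FDR 1.8e-13 in DCIS). COL17A1, a hemidesmosome collagen, rose in both lines but at different places. These were chr10:104053801-104055400 in 10A (1.79, FDR 7.38e-06) and chr10:104084201-104086500 in DCIS cells (4.02, FDR 3.02e-08). In 10A cells the keratin KRT15 (1.44, FDR 5.91e-06) and the hemidesmosome linker DST (1.32, FDR 6.69e-06) ranked between LAMB3 and COL17A1. In DCIS cells the keratin KRT6B (2.16, FDR 5.22e-08) and the P-cadherin gene CDH3 (2.49, FDR 3.53e-07) ranked after COL17A1.

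Of 24 terminal differentiation genes, 11 had a region in 10A cells and 14 in DCIS cells. In 10A cells 13 of their 26 regions rose (50%, against 43.6% of all) and 1 fell (3.85%, against 0.225%). In DCIS cells 15 of 47 rose (31.9%, against 23.6%) and 1 fell (2.13%, against 4.86%). IVL, which encodes the cornified-envelope protein involucrin, had the lowest FDR in both lines (1.41, FDR 0.000279 in 10A, and 3.84, FDR 2.87e-09 in DCIS). The envelope gene SPRR1B (2.53, FDR 1.88e-06), the protease gene KLK7 (1.93, FDR 4.66e-06) and SPRR3 (2.46, FDR 5.36e-05) followed in DCIS cells. In 10A cells KRT13 (1.65, FDR 0.000443), SBSN (1.50, FDR 0.000552) and the envelope gene EVPL (1.38, FDR 0.000775) did.

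Of 16 paralogs of the factors, 10 of 13 with a 10A region and 4 of 13 with a DCIS region had at least 1 that rose, against 74.3% and 32.2% of all genes. In regions these were 25 of 47 in 10A cells (53.2%, against 43.6% of all) and 7 of 47 in DCIS cells (14.9%, against 23.6%). In DCIS cells 1 fell (2.13%, against 4.86%). KLF7 rose in both lines (1.47, FDR 1.1e-06 in 10A, and 3.27, FDR 3.42e-11 in DCIS), as did KLF6 (1.13, FDR 3.9e-05, and 1.25, FDR 0.00753). KLF2 (1.37, FDR 7.2e-07) and UBP1 (1.40, FDR 0.000148) rose in 10A cells. In DCIS cells OVOL2 rose (1.57, FDR 0.0111), and TFCP2L1 fell (-1.29, FDR 0.0146).

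Luminal transcription factors were set beside the basal and squamous ones, with no test between the lists. Of 11 such genes, 14 of 40 regions rose in 10A cells (35%, against 43.6% of all), and in DCIS cells 10 of 32 rose (31.2%, against 23.6%) and 3 fell (9.38%, against 4.86%). EHF, an epithelial ETS factor, rose in 10A (0.96, FDR 0.00199) and DCIS cells (2.97, FDR 4.12e-12). ESR1, the estrogen receptor gene, rose at different places, chr6:152094601-152098200 in 10A (1.40, FDR 0.00164) and chr6:151917201-151918300 in DCIS cells (3.38, FDR 1.28e-07). GATA3 (1.40, FDR 0.00306) and TBX3 (0.86, FDR 0.00329) rose in 10A cells, and FOXA1 (1.63, FDR 9.65e-06) and ELF3 (1.47, FDR 0.0369) in DCIS cells.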

How the data were processed

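H3K27ac ChIP-seq and input libraries of 10A and DCIS cells (8 groups of 3, grouped by the labels) were analysed from 6 tables. As the methods describe, alignment to GRCh38 used BWA together with Rsubread, duplicates were taken out by SAMtools, and the authors ran csaw for differential binding. The log2 fold changes, the p-values with their FDR and the numbers of windows are those the authors deposited, 1 line per region, and come from the authors' own comparisons, since the tables hold nothing else. Normalization, window filter, merging of windows, prior count and choice of inputs are not given in the sources used here. Depth per library is unknown, so no interval or floor was set. The labels do not say that replicates were separate cultures, so an FDR may measure technical spread only.

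From these tables, regions naming a factor were taken in Python 3.11.15 with pandas 2.3.3 and numpy 2.4.6, joined by overlaps of at least 1 bp, and placed on GENCODE release 44 of the same build. The code was tested on simulated regions. The text names, for each factor and line, the region and the promoter-annotated region of lowest FDR, further regions where a count or stretch is described, which were chosen after their values were seen, and up to 4 genes of lowest FDR of each other list. Neighbourhoods of 5 Mb, the overlap with marks of the other line and the stretches within TP63 and GRHL3 were also added after the data were seen. The factors and lists were chosen with earlier results of these data known. Alternatives were another FDR, a minimum fold or number of windows, centring on the line median, stricter annotation and wider or narrower overlap. A further marker gene and a further sequence are not reported here.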

Additional observations from a re-analysis of the deposited data

How the results depend on the processing

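The 16 of 56 regions of the factors that rose in 10A cells became 8 at an FDR under 0.01. They became 5 when the change had to reach 1 on the log2 scale, and 0 when at least 1 above the line median was required. With promoter-annotated regions only they became 10 of 25, and within 50 kb of the gene bodies 34 of 116. The 14 of 63 in DCIS cells became 4 of 24 with promoter-annotated regions only and 31 of 102 within 50 kb of the gene bodies. Without TP63, a setting chosen after seeing the data, they became 7 of 50. Over all tested regions, 43.6% rose in 10A cells and 23.6% in DCIS cells at an FDR under 0.05. The 3 of 63 that fell in DCIS cells became 0 at an FDR under 0.01 and 6 at an FDR under 0.1. They became 1 of 41 with at least 5 windows, 0 of 24 with promoter-annotated regions only and 6 of 102 within 50 kb. Of all tested DCIS regions 4.86% fell at an FDR under 0.05. None fell in 10A cells under any of these alternatives in the authors' csaw values. The 29 regions marked in 10A shCTRL cells became 17 at an FDR under 1e-10. The 11 10A regions that rose over a shANCO1 mark became 5 at an FDR under 0.01 for both. In DCIS cells the 4 that rose over a shANCO1 mark became 2 when at least 50% of the region had to be covered, and the 1 that fell over a shCTRL mark became 0 under that rule and 0 at an FDR under 0.01. The 2 pairs that rose in both lines became 1 with reciprocal overlap. The other counts stayed within 1.5 times. Where a count moved, fewer or more regions qualified by construction.

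No paired analysis was possible because the tables hold no values per library, and for the same reason no replicate was left out in turn. Unknown normalization limits every direction in 10A cells, where 91.8% of all regions lay above 0. The prior count behind fold changes over input is not stated, and its effect on their size was not tested.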
